A study of Homo sapiens with 4 samples.

Results

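The G1/S and DNA replication genes are 43 genes that act at the entry into S phase or at the replication fork. They were chosen by name, with earlier results of these data known, and found in the deposited tables by NCBI Gene ID. They are 43 of the 18882 genes listed in at least 1 library. All of them had reads in all 4 libraries, from 52 to 4787 per gene and library, and all 43 passed the filter on low counts. RNA came from BT-474, an established human breast cancer cell line of the luminal B type that carries extra copies of ERBB2. The control group was wild-type BT-474 cells (replicates 1 and 2), and the NRP-1 group was BT-474 cells that overexpress NRP-1 from a stably transfected plasmid (replicates 2 and 3). Both were grown in RPMI-1640 medium with 10% FBS, and the cells with the plasmid were selected with Geneticin (G418). The NRP-1 cells were isolated as colonies, and the sources used here do not say whether the 2 NRP-1 libraries came from 1 clone. Cells with the empty plasmid were not analysed here, so the plasmid, the selection and NRP-1 itself cannot be told apart. No source states that the 2 libraries of a group came from separate cultures, so the p-values measure only the spread between these libraries, which may be technical.

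The deposited expected counts, which are estimates of the reads of each gene and need not be whole, summed to between 8243595 and 8448926 per library. NRP1, the overexpressed gene, had 7 and 8 reads in the controls, 103 reads in NRP-1 replicate 2 and 62 reads in NRP-1 replicate 3. Its log2 fold change between the groups was 3.38 (SE 0.42, adjusted p = 0.044, edgeR). The NRP-1 libraries stood apart from each other. Their biological coefficient of variation, the relative spread of a gene's level beyond counting noise, was 0.225 against 0.064 between the controls. Each NRP-1 library was therefore also set against the 2 controls on its own. In those comparisons the spread was that between the controls alone, so they compare libraries and not conditions. The 10 luminal and ERBB2 markers had reads in all 4 libraries, and ERBB2 itself had 5527.4 to 6940.0 CPM (read counts scaled to an equal library total).

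Cells copy their DNA in S phase. In G1, the origin recognition complex, CDC6 and CDT1 load the MCM helicase onto DNA, a step called licensing. Cyclin D with CDK4 and cyclin E with CDK2 then phosphorylate RB1, which releases E2F transcription factors, and E2F raises the transcription of many of the genes described here. CDC45 and GINS turn the loaded MCM ring into a running helicase, the polymerases copy the strands with the sliding clamp PCNA, and FEN1 and LIG1 join the pieces of the lagging strand.

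Most of the 43 genes, 35 of them, lay on opposite sides of the controls in the 2 NRP-1 libraries. Between the groups, edgeR's quasi-likelihood test called 0 of the 43 genes at an adjusted p under 0.05, against 0.413% of the 14298 tested genes called higher and 0.678% called lower. At an unadjusted p under 0.05 it also had 0 of the 43 genes, against 3268 of all genes. DESeq2 had 2 of the 43 without adjustment, against 2478 of all genes, and 0 with it, against 953 of all genes. The group log2 fold changes of the 43 genes ran from -0.68 (PRIM1) to 0.91 (UHRF1), with a median of 0.34 against 0.02 over all tested genes. For a single gene an exact two-sided permutation test of 2 libraries against 2 cannot give a p below 0.333.

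Against the 2 controls, NRP-1 replicate 2 was lower for 25 of the 43 genes and higher for 1 gene, CCND1. Over all tested genes 15.1% were called lower and 13.9% higher in that library. NRP-1 replicate 3 was higher for 39 of the 43 genes and lower for 0, while 19.7% of all genes were called higher and 18.6% lower. The 4 genes not called in replicate 3 were GINS3, PRIM1, CCND1 and CCNE1. The median log2 fold change of the 43 genes was -0.50 in replicate 2 and 0.83 in replicate 3.

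The test of the difference between the 2 NRP-1 libraries called 40 of the 43 genes higher in replicate 3 and 1 gene, CCND1, lower. The background of this test was 12.2% of all genes higher and 9.79% lower. CCNE1 (adjusted p = 0.0525) and RB1 (adjusted p = 0.82) were not called. The difference had a median of 1.30 on the log2 scale and ran from -0.56 for CCND1 to 1.97 for MCM5. In CPM, 35 of the 43 genes (81.4%) lay below both controls in replicate 2 and above both in replicate 3, as did 9.58% of all tested genes. The count was also 35 in CPM without TMM scaling and in FPKM. CCND1 and RB1 were the 2 genes (4.65%) above both controls in both NRP-1 libraries, a position that 27.9% of all tested genes held, and 0 of the 43 genes lay below both controls in both, against 28.3% of all. Likewise 0 of the 43 genes lay above both controls in replicate 2 and below both in replicate 3, against 8.85% of all. The median SD of the 43 genes was 0.12 between the controls and 0.92 between the NRP-1 libraries, on the log2 CPM scale.

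These calls rest on the spread between the controls. The next test uses a spread that by construction contains the difference between the NRP-1 libraries, so it cannot decide whether those 2 libraries differ. With the spread between the NRP-1 libraries included, a likelihood ratio test called 0 of the 43 genes in each of the 3 comparisons of single libraries. Between the NRP-1 libraries it called 0 of all tested genes too. Its counts at an unadjusted p under 0.05 were 2, 14 and 37 of the 43. Over all 14298 tested genes these counts were 2318, 3217 and 683. DESeq2 called 6 genes lower in replicate 2, 28 higher in replicate 3 and 35 higher in replicate 3 than in replicate 2. Without the filter on low counts, edgeR called 0 lower in replicate 2, 28 higher in replicate 3 and 0 between the 2. At an unadjusted p under 0.05, DESeq2 had 18, 33 and 41 of the 43, against 2159, 3115 and 1629 of all tested genes. EdgeR without the filter had 24, 39 and 42, against 4545, 5606 and 3666. All calls of these settings, directions together, are given in the last section.

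**Figure D1:**
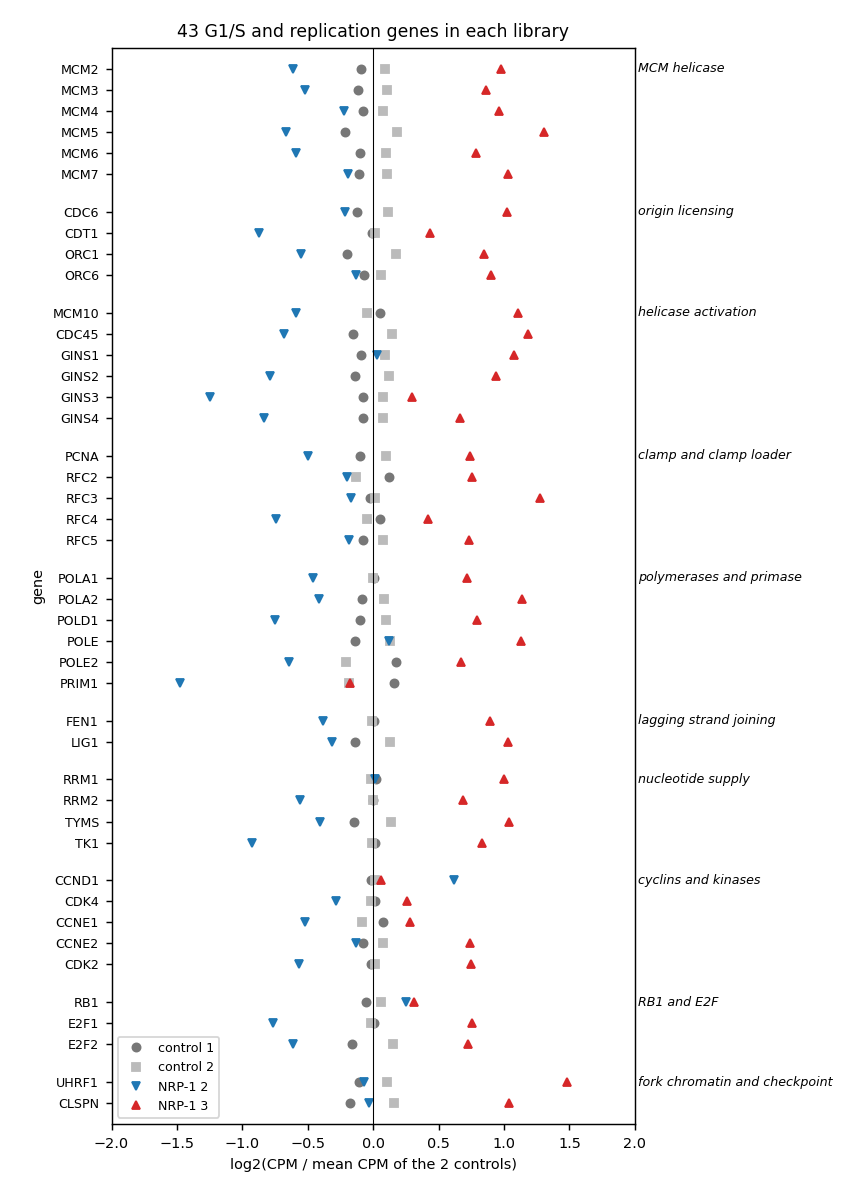
Level of each of the 43 genes in each library as the log2 of its CPM over the mean of the 2 controls, by role, with 1 symbol per library and the vertical line at the control mean. The points of NRP-1 replicate 2 lie below both controls, and those of replicate 3 above both, for 35 of the 43 genes, and CCND1 and RB1 lie to the right of both controls in both NRP-1 libraries.

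Promoter sequence was examined because the genes moved together and many of them are known E2F targets. A RefSeq table of promoters (GRCh38.p14), from 250 bases before to 50 bases after a gene's start, held 37 of the 43 genes with 47 promoters in all, since 7 of the genes have more than 1 start, and a gene was counted as having a match if any of its promoters had it. MCM4, MCM5, GINS4, CCNE2, CCND1 and CDK2 had no entry, and the start listed for RB1 lies inside the GENCODE gene. The E2F consensus was searched on both strands as TTTCCCGC, TTTCGCGC, TTTGCCGC and TTTGGCGC, and overlapping matches were each counted. It was present in 21 of the 37 genes (56.8%), against 1090 of all 27305 genes in the table (3.99%) and 713 of 11225 tested genes with an entry (6.35%). The CHR element, searched as TTTGAA on both strands and known from late cell cycle genes, was present in 1 of the 37 genes (2.7%, RRM1), in 18.2% of all genes in the table and in 13.7% of the tested genes with an entry. The 29 E2F matches lay in 22 promoters of these 21 genes, and 18 of the genes held at least 1 match between 60 bases before and 50 bases after the start. A match is a description of the letters and does not show that a factor was bound. The genes were chosen by name and many are known E2F targets, so the high share of matches can come from that choice alone. Whether E2F had a part in the shifts was not tested.

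The 100 bases just before the start are shown for 6 genes with a match and for 2 without, PRIM1 and CDK4. Each is written 5′ to 3′ on the strand of the gene, from RefSeq on GRCh38.p14, with the E2F consensus matches in capitals.
MCM6, chr2:135876444-135876543, minus strand: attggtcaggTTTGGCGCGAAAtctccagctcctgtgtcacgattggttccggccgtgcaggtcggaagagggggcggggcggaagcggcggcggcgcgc
PCNA, chr20:5126623-5126722, minus strand: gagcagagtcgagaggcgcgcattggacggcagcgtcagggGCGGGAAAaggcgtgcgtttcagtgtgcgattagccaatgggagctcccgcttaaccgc
RFC3, chr13:33818049-33818148, plus strand: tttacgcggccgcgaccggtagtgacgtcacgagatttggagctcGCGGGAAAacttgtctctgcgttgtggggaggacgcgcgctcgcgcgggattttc
POLA2, chr11:65261862-65261961, plus strand: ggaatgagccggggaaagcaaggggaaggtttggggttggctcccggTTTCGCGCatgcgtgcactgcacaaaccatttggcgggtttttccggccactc
E2F1, chr20:33686386-33686485, minus strand: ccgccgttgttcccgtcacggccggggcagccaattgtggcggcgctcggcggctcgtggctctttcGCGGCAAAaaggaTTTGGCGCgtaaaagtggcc
UHRF1, chr19:4909401-4909500, plus strand: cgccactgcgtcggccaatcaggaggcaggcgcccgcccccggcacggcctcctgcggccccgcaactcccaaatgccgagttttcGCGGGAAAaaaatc
PRIM1, chr12:56752324-56752423, minus strand: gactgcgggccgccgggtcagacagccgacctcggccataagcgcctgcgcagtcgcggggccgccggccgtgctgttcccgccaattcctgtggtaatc
CDK4, chr12:57752311-57752410, minus strand: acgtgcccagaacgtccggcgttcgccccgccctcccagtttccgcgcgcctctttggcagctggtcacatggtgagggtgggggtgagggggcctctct

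In MCM6 the capitals are 2 overlapping matches, 1 on each strand, and the first begins 90 bases before the start. E2F1, itself an E2F gene, held 2 separate matches. The genes with a match had a median difference of 1.35 between the NRP-1 libraries (n = 21, log2 scale) and those without a match 1.20 (n = 16). Among the other tested genes, the medians were 0.08 with a match (n = 692) and -0.00 without (n = 10496). The single genes spread widely around these medians, and among the other genes with a match the difference ran from -2.25 to 8.65. In replicate 2 the medians were -0.46 with and -0.54 without a match, and in replicate 3 they were 0.98 and 0.77.

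**Figure D2:**
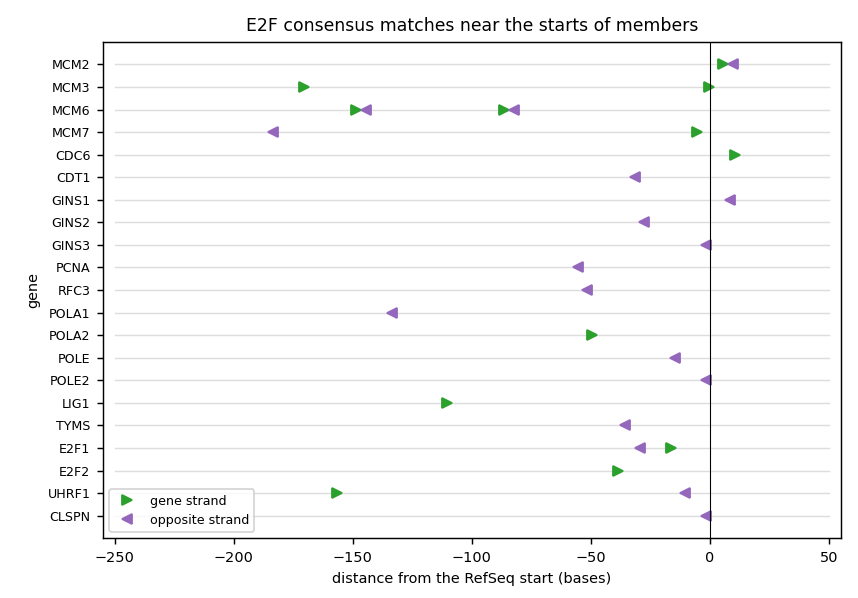
Place of each E2F consensus match relative to the RefSeq start (in bases, 0 at the start, negative before it) for the 21 genes with a match, with arrows pointing right for the strand of the gene and left for the opposite strand. The 29 matches gather around the start, and 18 of the 21 genes hold at least 1 between 60 bases before and 50 bases after it.

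MCM2 to MCM7 form the ring of the replicative helicase. All 6 genes were higher in NRP-1 replicate 3 than in the controls, and 4 of the 6 were lower in replicate 2, with medians of 0.97 and -0.56 on the log2 scale. MCM2 had 103.5 and 117.4 CPM in the controls, 72.0 CPM in NRP-1 replicate 2 and 217.8 CPM in replicate 3. The controls lay between the NRP-1 libraries, and the log2 fold change was -0.62 (SE 0.11, adjusted p = 3.62e-07) in replicate 2 and 0.98 (SE 0.10, adjusted p = 3.87e-22) in replicate 3. MCM5 had 33.2 and 43.7 CPM in the controls, 24.2 CPM in replicate 2 and 95.1 CPM in replicate 3. Relative to their level its controls were the farthest apart of the 6, and its NRP-1 libraries differed most of all 43 genes, by 1.97 (SE 0.16, adjusted p = 1.62e-32), which is 3.93-fold. MCM7 had 232.9 and 270.0 CPM in the controls, 219.4 in replicate 2 and 512.5 in replicate 3. Here replicate 2 lay just under the lower control (-0.20, adjusted p = 0.133) while replicate 3 was 1.03 higher (adjusted p = 1.48e-25). MCM4 behaved like MCM7, at -0.23 (adjusted p = 0.0941) and 0.96 (adjusted p = 3.5e-21). MCM3 and MCM6 were lower in replicate 2, by -0.52 and -0.59, and higher in replicate 3, by 0.86 and 0.79. Between subunits, the FPKM of MCM7 over that of MCM5 was 6.34 and 5.59 in the controls, 8.19 in replicate 2 and 4.89 in replicate 3, a ratio that was not tested.

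The licensing factors were CDC6 and CDT1, which load the ring, and ORC1 and ORC6, subunits of the complex that marks origins. All 4 were higher in replicate 3 and 2 of the 4, CDT1 and ORC1, were lower in replicate 2. CDT1 had 55.1 and 56.1 CPM in the controls, 30.4 in replicate 2 and 75.2 in replicate 3. It showed the strongest fall of the 4 in replicate 2, -0.87 (SE 0.14, adjusted p = 1.02e-08), and the smallest rise in replicate 3, 0.43 (SE 0.12, adjusted p = 0.00164). CDC6 had the largest rise of the 4 in replicate 3, with 42.9 and 50.7 CPM in the controls, 40.3 in replicate 2 and 95.2 in replicate 3. Its value in replicate 2 was close to the lower control (-0.22, adjusted p = 0.226), and it was higher by 1.02 in replicate 3 (SE 0.12, adjusted p = 1.76e-16). ORC1, at 15.4 and 20 CPM in the controls, had 12.1 in replicate 2 and 31.8 in replicate 3. ORC6, at 38.3 and 42.0 CPM in the controls, had 36.6 and 75.1. Both lay under the controls in replicate 2 and above them in replicate 3, though ORC6 in replicate 2 did not pass the test (-0.13, adjusted p = 0.531).

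Of the 6 genes that start the helicase, MCM10, CDC45, GINS2, GINS3 and GINS4 were lower in replicate 2, and all but GINS3 were higher in replicate 3. CDC45 and the 4 GINS proteins bind the MCM ring to form the active helicase, and MCM10 is needed for its activation. This group had the lowest median in replicate 2, -0.73, among the 8 groups of 3 or more genes. CDC45 had 14.8 and 18.2 CPM in the controls, 10.3 in replicate 2 and 37.4 in replicate 3, and the NRP-1 libraries differed by 1.85 (SE 0.23, adjusted p = 2e-13). The 4 GINS subunits, which work in a shared complex, took different positions. GINS1 had 44.5 and 50.7 CPM in the controls, 48.6 in replicate 2 and 100.3 in replicate 3. GINS2 had 12.9 and 15.4 CPM in the controls, then 8.22 and 27.2. GINS3 had 13.7 and 15.3 CPM in the controls, then 6.11 and 17.8. In replicate 2, GINS1 was inside the range of the controls (0.03, adjusted p = 0.896), whereas GINS3 was -1.24 (SE 0.28, adjusted p = 8.01e-05). In replicate 3, GINS1 was 1.07 higher (adjusted p = 9e-19) and GINS3 was at 0.30 (adjusted p = 0.326). GINS4 was -0.84 in replicate 2 and 0.66 in replicate 3, both past the threshold. MCM10 was -0.59 and 1.11.

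PCNA, the ring that tethers polymerases to DNA, had 139.1 and 159.3 CPM in the controls, 105.8 in replicate 2 and 249.1 in replicate 3. It was lower in replicate 2 (-0.50, SE 0.10, adjusted p = 2.34e-05) and higher in replicate 3 (0.74, SE 0.10, adjusted p = 2.51e-13). RFC2, RFC3, RFC4 and RFC5 are small subunits of the loader that opens this ring. All 4 were higher in replicate 3, and RFC4 alone was lower in replicate 2. RFC3 had 19.3 and 19.8 CPM in the controls, 17.4 in replicate 2 and 47.5 in replicate 3, while RFC4 had 37.3 and 34.8, then 21.5 and 48.2. Replicate 2 left RFC3 near the controls (-0.17, adjusted p = 0.555) and RFC4 below them (-0.74, adjusted p = 7.3e-05). In replicate 3 RFC3 was 1.28 higher (adjusted p = 2.4e-13) and RFC4 0.42 (adjusted p = 0.0136). RFC2 and RFC5 were 0.75 and 0.73 higher in replicate 3. In replicate 2 they were at -0.20 (adjusted p = 0.22) and -0.19 (adjusted p = 0.407).

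Of the 6 polymerase and primase genes, 5 were higher in replicate 3, and POLA1, POLA2, POLD1 and PRIM1 were lower in replicate 2. PRIM1, the catalytic subunit of the primase that lays the RNA primers, had 27.4 and 21.5 CPM in the controls, 8.81 in replicate 2 and 21.7 in replicate 3. It was the lowest of the 43 genes in replicate 2, at -1.47 (SE 0.23, adjusted p = 1.94e-09), which is 0.36 of the control level. In replicate 3 it lay within the range of the controls (-0.17, adjusted p = 0.518). The subunits of polymerase alpha, which extends the primers, took other positions. POLA2 had 33.3 and 37.3 CPM in the controls, 26.5 in replicate 2 and 77.7 in replicate 3 (1.14, SE 0.13, adjusted p = 1.74e-16). POLA1, the catalytic subunit of polymerase alpha, had 64.3 and 64.2 CPM, then 46.7 and 105.7. Both lay under the controls in replicate 2 and above them in replicate 3.

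POLE, the catalytic subunit of the leading strand polymerase epsilon, had 114.7 and 137.4 CPM in the controls, 137.2 in replicate 2 and 275.6 in replicate 3. Replicate 2 was within the range of the controls (0.12, adjusted p = 0.402), and replicate 3 was 1.13 higher (SE 0.10, adjusted p = 2.97e-30). Its partner POLE2 had 14.9 and 11.4 CPM, then 8.45 and 21.0, at -0.64 (adjusted p = 0.0501) and 0.67 (adjusted p = 0.00988). POLD1, the catalytic subunit of polymerase delta, had 34.7 and 40.0 CPM in the controls, 22.2 in replicate 2 and 64.7 in replicate 3. Both NRP-1 libraries lay outside the controls, on opposite sides, by -0.75 and 0.79.

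FEN1, which trims the flaps of lagging strand pieces, had 61.0 and 60.5 CPM in the controls, 46.5 in replicate 2 and 112.6 in replicate 3. LIG1, the ligase that seals them, had 37.2 and 44.6 CPM, then 32.8 and 83.4. Both were higher in replicate 3, by 0.89 and 1.03, and FEN1 was lower in replicate 2 (-0.39, adjusted p = 0.00911), where LIG1 was at -0.32 (adjusted p = 0.0779).

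The nucleotide supply genes were all 4 higher in replicate 3, and RRM2, TYMS and TK1 were lower in replicate 2. TK1, the thymidine kinase of the salvage pathway, had 65.4 and 64.4 CPM in the controls, 34.1 in replicate 2 and 115.5 in replicate 3. The 2 controls agreed closely and lay far from both NRP-1 libraries, at log2 fold changes of -0.93 (SE 0.13, adjusted p = 2.89e-11) and 0.83 (SE 0.11, adjusted p = 6.31e-13). RRM1 and RRM2 are the large and small subunits of ribonucleotide reductase, which makes deoxyribonucleotides. RRM1 had 66.8 and 65.3 CPM in the controls, 66.5 in replicate 2 and 131.8 in replicate 3. RRM2 had 148.6 and 149.0 CPM in the controls, 101.0 in replicate 2 and 239.3 in replicate 3. In replicate 2 the small subunit was lower (-0.56, adjusted p = 1.53e-06) and the large subunit was at the control level (0.01, adjusted p = 0.963). Per length, the FPKM of RRM2 over that of RRM1 was 2.19 and 2.24 in the controls, 1.5 in replicate 2 and 1.78 in replicate 3, a ratio that was not tested.

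TYMS, the thymidylate synthase, had 67.0 and 81.5 CPM in the controls, 55.9 in replicate 2 and 152.9 in replicate 3, at -0.41 (adjusted p = 0.00256) and 1.04 (adjusted p = 1.55e-22). In the GENCODE 29 annotation, ENOSF1 on the opposite strand overlaps 58.2% of its exon bases. ENOSF1 itself had 682, 821, 692 and 1157 reads in the 4 libraries, a difference of 0.74 between the NRP-1 libraries (adjusted p = 3.69e-08). The sources used here do not say that the counting used strand, so it is uncertain to which of the 2 genes reads on the shared bases belong. In all, 20 of the 43 genes shared exon bases with another GENCODE gene, and 8 shared over 10% with a gene of the opposite strand (TYMS, CDK4, CCNE2, MCM2, GINS4, GINS3, CDK2 and CCND1). POLA2, RRM2, PRIM1 and POLD1 shared 53.7%, 27.9%, 26.0% and 12.1% of their exon bases with gene models of the same strand, so their values too are uncertain where the counting split such reads.

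Of the 5 cyclin and kinase genes of the G1/S switch, 3 were higher in replicate 3, and the median was 0.28 there and -0.28 in replicate 2. CCND1, which encodes cyclin D1, had 362.1 and 369.5 CPM in the controls, 562.1 in replicate 2 and 381.0 in replicate 3. It was the 1 gene of the 43 that was higher in replicate 2 (0.62, SE 0.10, adjusted p = 2.73e-09), which is 1.54-fold, and replicate 3 lay near the controls (0.06, adjusted p = 0.68). The difference between the NRP-1 libraries, -0.56 (SE 0.11, adjusted p = 1.37e-05), was opposite in sign to that of the other 42 genes. CDK4, the kinase partner of cyclin D, had 210.1 and 206.3 CPM in the controls, 171.0 in replicate 2 and 248.7 in replicate 3. Its shifts were small, at -0.28 (adjusted p = 0.0198) and 0.26 (adjusted p = 0.0246). TSPAN31 on the opposite strand overlaps 51.9% of the CDK4 exon bases and had 617, 569, 438 and 310 reads, so the CDK4 value is uncertain.

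CDK2, the partner of cyclin E, had 60.9 and 62.1 CPM in the controls, 41.5 in replicate 2 and 103.2 in replicate 3. It was lower in replicate 2 (-0.57, adjusted p = 7.52e-05) and higher in replicate 3 (0.75, adjusted p = 3.88e-10). CCNE1 and CCNE2 encode the cyclins E. CCNE1 had 11.4 and 10.2 CPM in the controls, then 7.52 and 13.1, and passed the test in neither NRP-1 library (-0.53, adjusted p = 0.166, and 0.28, adjusted p = 0.429). CCNE2 had 37.8 and 41.9 CPM, then 36.4 and 66.4, and was 0.74 higher in replicate 3 (adjusted p = 2.28e-07). INTS8 on the opposite strand overlaps 47.5% of the CCNE2 exon bases, and its reads were 449 and 488 in the controls, 488 in replicate 2 and 682 in replicate 3.

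RB1, the pocket protein that holds E2F in check, had 47.9 and 52.0 CPM in the controls, 59.4 in replicate 2 and 62.0 in replicate 3. Both NRP-1 libraries lay above both controls and close to each other, with a difference of 0.06 (SE 0.14, adjusted p = 0.82). RB1 passed the test in replicate 3 (0.31, adjusted p = 0.035) and not in replicate 2 (0.25, adjusted p = 0.125). E2F1 had 21.9 and 21.6 CPM in the controls, 12.8 in replicate 2 and 36.8 in replicate 3. E2F2 had 28.2 and 35.0 CPM, then 20.7 and 52.3. These 2 activator E2F genes were lower in replicate 2 (-0.77, adjusted p = 0.00133, and -0.61, adjusted p = 0.00203) and higher in replicate 3 (0.76, adjusted p = 7.87e-05, and 0.73, adjusted p = 6.58e-06).

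**Figure D3:**
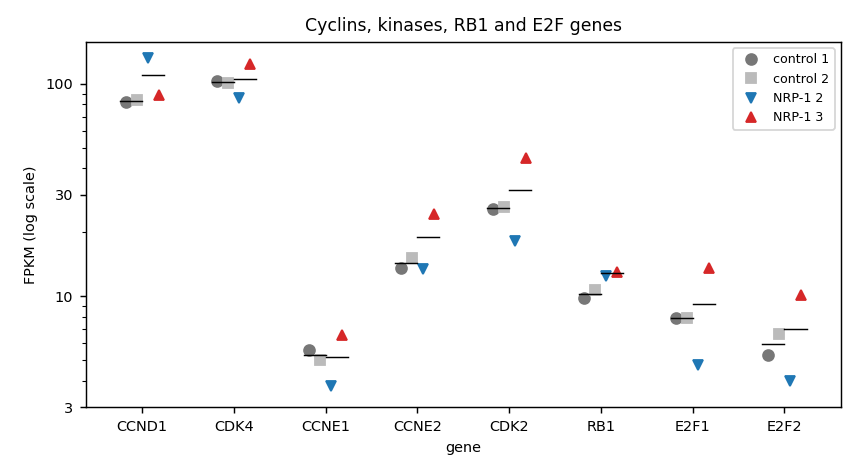
FPKM on a log axis of the cyclin, kinase, RB1 and E2F genes, with 1 symbol per library and a short line at the mean of each group. NRP-1 replicate 2 is the highest library for CCND1 and the lowest for CDK4, CCNE1, CCNE2, CDK2, E2F1 and E2F2. Both NRP-1 libraries lie above the controls for RB1.

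UHRF1, which recruits the maintenance DNA methyltransferase to newly copied DNA, had 31.5 and 36.5 CPM in the controls, 32.4 in replicate 2 and 95.1 in replicate 3. It had the highest log2 fold change of the 43 genes in replicate 3, 1.48 (SE 0.13, adjusted p = 4.08e-30), or 2.80-fold. Its value in replicate 2 lay between the controls (-0.07, adjusted p = 0.777). CLSPN, the adaptor that activates the checkpoint kinase CHK1 at stalled forks, had 39.6 and 49.8 CPM in the controls, 43.6 in replicate 2 and 91.8 in replicate 3. It too was between the controls in replicate 2 (-0.04, adjusted p = 0.871) and higher in replicate 3 (1.04, adjusted p = 1.59e-16). UHRF1, CLSPN, GINS1, RRM1 and POLE were the 5 genes with replicate 2 inside the range of the controls and replicate 3 above it.

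Levels between genes were compared per length, in FPKM. In the controls PCNA was highest at 112.9 ± 11.1 FPKM (SD, n = 2), followed by CDK4 at 102.0 ± 0.962, MCM7 at 87.4 ± 9.52 and CCND1 at 83.3 ± 1.5. PCNA and CDK4 differed by less than the SD of PCNA, and MCM7 and CCND1 by less than that of MCM7, so neither pair is ordered beyond its spread. TYMS followed at 46.1 ± 6.51 FPKM. CLSPN was lowest at 5.17 ± 0.813 FPKM and CCNE1 next at 5.30 ± 0.410, again within their spread. The FPKM of cyclin D1 over that of cyclin E1 was 14.7 and 16.8 in the controls, 34.8 in replicate 2 and 13.5 in replicate 3. This ratio was highest in replicate 2, where it rests on 64 reads of CCNE1, and it was not tested.

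A further 65 genes of replication and of the G1/S switch, in 5 lists, gave the surroundings of the 43. Of these, 64 passed the filter and 0 were called between the groups, where 0.413% of all tested genes were called higher and 0.678% lower. The counts that follow stand beside the shares of all tested genes given above for each single-library comparison. Over all tested genes the median was -0.01 in replicate 2, -0.00 in replicate 3 and -0.00 for the difference between them. In replicate 3, 42 were higher and 4 lower, with a median of 0.61, and in replicate 2, 4 were higher and 15 lower, with a median of -0.04. Between the NRP-1 libraries, 43 were higher in replicate 3 and 2 lower, with a median difference of 0.75 against 1.30 for the 43 genes.

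Among the genes with the largest shifts, DBF4, the activator of the origin firing kinase CDC7, had 25.7 and 29.9 CPM in the controls, 45.1 in replicate 2 and 85.7 in replicate 3. It was higher in both NRP-1 libraries (0.70 and 1.62, adjusted p = 1.14e-05 and 3.26e-33), whereas CDT1 and ORC1 were lower in replicate 2. TIPIN and TIMELESS, which form the fork protection complex, were lower in replicate 2 (-1.03 and -0.60), as was the chromatin assembly subunit CHAF1B (-0.81). RRM2B and E2F4 were higher there (0.39 and 0.35), and in replicate 3 they were at 0.28 and 0.57. CCNA2, the S phase cyclin A, had 29 and 34.1 CPM in the controls, 34.3 in replicate 2 and 98.6 in replicate 3 (1.64, adjusted p = 1.54e-36). E2F7, a repressor E2F, was 1.63 higher in replicate 3. The genes lower in replicate 3 were led by CDKN1C (-1.54), an inhibitor of cyclin-dependent kinases with under 3 CPM, RBL2, a relative of RB1 (139.4 and 136.9 CPM in the controls, 100.6 in replicate 2 and 69 in replicate 3), and POLD4 (-0.82), a small subunit of polymerase delta. TIPIN and CCNA2 led the differences between the NRP-1 libraries, at 1.59 and 1.52. The value of TIPIN rests on 35 reads in replicate 2 and 106 in replicate 3. The histone chaperone ASF1B followed, with 31.1 CPM in replicate 2 and 88.3 in replicate 3. POLD4 and RBL2 were lower in replicate 3 than in replicate 2, at -0.80 and -0.55.

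The inhibitors of cyclin-dependent kinases did not move together. CDKN2A, CDKN2B, CDKN2C and CDKN2D were at 0.09, 0.91, 0.46 and 0.27 in replicate 2. In replicate 3 they were at 1.42, 0.79, 1.38 and 0.52. CDKN1B was at 0.15 and -0.05, and CDKN1C at -0.16 and -1.54. The inhibitor CDKN1A (p21), chosen after its values were seen, had 60.3 and 68.2 CPM in the controls, 50.3 in replicate 2 and 42.2 in replicate 3. It was lower in both NRP-1 libraries (-0.35, adjusted p = 0.0226, and -0.61, adjusted p = 2.57e-05), which did not differ from each other past the threshold (-0.25, adjusted p = 0.247).

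The 20 genes of G2 and mitosis had a median above 0 in replicate 2, where that of the replication genes was below 0. They were all higher in replicate 3 (20 of 20, median 1.85), and in replicate 2, 15 were higher and 0 lower, with a median of 0.68 against -0.50 for the 43 genes. PLK1, a mitotic kinase, had 12.1 and 17.4 CPM in the controls, 35.0 in replicate 2 and 92.4 in replicate 3. CDC20, the activator of the anaphase-promoting complex, had 21.8 and 27.9 CPM, then 56.4 and 150.9. Both stood above the controls in both NRP-1 libraries and highest in replicate 3. CENPE (1.11 in replicate 2) and KIF20A (2.39 in replicate 3) had the next largest shifts, and AURKB differed most between the NRP-1 libraries (1.76). The shares of all tested genes called in the single libraries were given above for the 43 genes. Between the groups edgeR called 0 of the 20 genes (median 1.38, positive in 20 of 20). Of all tested genes it called 0.413% higher and 0.678% lower. At an unadjusted p under 0.05 it had 16 of the 20 genes and 0 of the 43, against 3268 of all 14298 tested genes. Summed over genes, in CPM by library size without TMM scaling, the G2 and mitosis list held 736.0 and 937.2 CPM in the controls, 1325.2 in replicate 2 and 2964.8 in replicate 3. The 43 G1/S and replication genes held 2800.6 and 3032.3 CPM, then 2617.4 and 5079.0. In these bulk libraries the share of cells in a phase and the RNA per cell cannot be told apart.

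**Figure D4:**
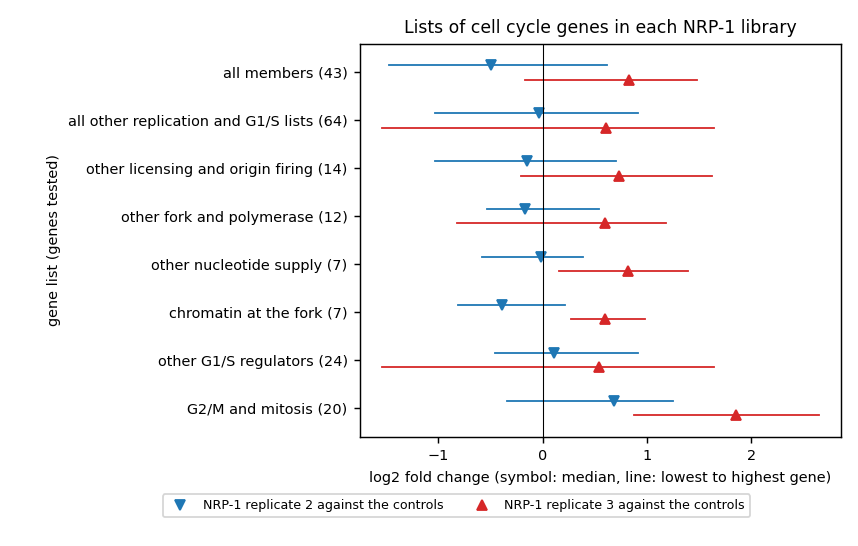
Log2 fold change of each NRP-1 library against the 2 controls for the lists of cell cycle genes, with the median as a symbol, a line from the lowest to the highest gene and the number of tested genes in brackets. The 43 genes have medians of -0.50 and 0.83, while the 20 G2 and mitosis genes have medians of 0.68 and 1.85, both above 0.

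Of the luminal markers, ESR1 and PGR, the estrogen and progesterone receptors, took the same positions as most of the 43 genes. ESR1 had 48.6 and 53.1 CPM in the controls, 32.1 in replicate 2 and 86.2 in replicate 3. PGR had 86.4 and 87.1 CPM in the controls, then 49.2 and 133.5. Both were lower in replicate 2 (-0.67 and -0.82) and higher in replicate 3 (0.76 and 0.62), and they differed between the NRP-1 libraries by 1.43 and 1.44 (adjusted p = 2.85e-19 and 2.51e-26). GATA3, a luminal transcription factor, had 22.6 CPM in each control, 80.8 in replicate 2 and 33.9 in replicate 3, higher in both (1.84 and 0.58). Over the 10 genes the median log2 fold change was 0.25 in replicate 2 (6 positive, 4 negative) and 0.20 in replicate 3 (7 positive, 3 negative). Over all tested genes these medians were -0.01 and -0.00. The 10 luminal markers summed to 11762.5 and 12144.3 CPM in the controls, 14484.6 in replicate 2 and 12277.0 in replicate 3, most of it ERBB2 and the keratins. These sums and those that follow are without TMM scaling.

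Markers of other cell types stood as follows. Basal markers summed to 2.18 and 5.54 CPM in the controls, 5.24 in replicate 2 and 9.82 in replicate 3, with 1 or 2 of the 4 genes at 0 reads in each library. KRT5 had 0 reads in 3 libraries and 1 read in replicate 3, while TP63 had 12, 43, 40 and 74 reads and was higher in replicate 3 (1.37, adjusted p = 0.00075). The summed fibroblast markers were 211.2 and 209.4 CPM in the controls, 180.2 in replicate 2 and 160.7 in replicate 3, nearly all COL1A1, with 2 to 4 of the 5 genes at 0 reads in each library. COL1A1 was lower in both NRP-1 libraries (-0.26 and -0.42) and was not called between the groups (-0.34, adjusted p = 0.177, edgeR). Endothelial markers summed to 5.58 and 8.91 CPM in the controls, 13.6 in replicate 2 and 11.7 in replicate 3. In each library 0 of the 3 genes were at 0 reads. VWF had 9, 20, 47 and 49 reads and was higher in both NRP-1 libraries (1.63 and 1.69). PECAM1 was near the controls (0.17 and 0.02), and CDH5 had 1, 1, 15 and 3 reads. Immune markers summed to 40.6 and 35 CPM in the controls, 13.8 in replicate 2 and 12.5 in replicate 3, nearly all CD68, with CD3E at 0 reads in all 4 libraries. CD68 was lower between the groups (-1.67, SE 0.19, adjusted p = 0.0423, edgeR) and in both NRP-1 libraries (-1.55 and -1.81). The part of all these markers, the luminal ones included, in the shifts of the 43 genes was not tested.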

How the data were processed

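RNA of 2 control libraries and 2 NRP-1 libraries was compared. Per the labels, poly(A) RNA was selected and cDNA was primed with random hexamers, and the submitters' processing notes name bcl2fastq 2.16, HISAT2 2.0.1, Bowtie2 2.2.5 and RSEM, with GRCh38 and hg19 as builds whose roles are not given. The authors deposited expected counts per gene, of which 32.8% of the values above 0 were not whole, and FPKM values, which are scaled to transcript length and mapped reads. For the 43 genes, 29 had whole counts in all 4 libraries. A table of the authors' own comparison (group means, ratios and a score) was not used here. Symbols were matched to 99.4% of gene IDs through RefSeq names.

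Counts were rounded, filtered with filterByExpr (14298 genes left), TMM-scaled (factors 0.986 to 1.01) and fitted in edgeR 4.0.16 (R 4.3.3) by quasi-likelihood, either with 2 groups or with 3 levels (control, NRP-1 replicate 2, NRP-1 replicate 3), whose 1 residual degree of freedom lies between the controls. P-values were adjusted by Benjamini-Hochberg over all 14298 genes, and a gene was called at an adjusted p under 0.05. The SE is the absolute log2 fold change over the square root of the F statistic. CPM values of single genes carry the TMM scaling, and CPM summed over a list is scaled by library size alone. Alternatives were DESeq2 1.42.0, limma 3.58.1 on FPKM values of genes with a mean of at least 0.5 (log2 after adding 1 or 0.1), a likelihood ratio test with the 2-group dispersion, no filter, a mean of at least 10 reads, library sizes without TMM, GC and length trends subtracted, and each library left out. The fits were tested on simulated data. Promoters came from RefSeq (GRCh38.p14) and overlaps from GENCODE 29.

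The members and lists were chosen with earlier results of these data known. All 43 members are named, with up to 3 called genes of the other replication and G1/S lists, and of the G2 and mitosis list, per direction and comparison by the size of the log2 fold change. The other listed inhibitors of cyclin-dependent kinases are named beside CDKN1A.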

Additional observations from a re-analysis of the deposited data

How the results depend on the processing

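The number of genes called between the groups was 156 of 14298, and it was 953 with DESeq2, 7 and 3 with limma on log2(FPKM + 1) and log2(FPKM + 0.1), 0 without the filter (3297 at an unadjusted p under 0.05), and 0 to 5414 with a library left out. The group test of the 43 genes had 0 called and rested on which NRP-1 library was in it: 0 to 39 were higher and 0 to 25 lower with a library left out, 39 higher without NRP-1 replicate 2, and 25 lower and 1 higher without NRP-1 replicate 3. The group median of 0.34 became -0.50 without NRP-1 replicate 3 and ran from -0.50 to 0.82 over the libraries left out. Among 4 group fold changes followed, GINS3 (-0.28) was 0.29 without NRP-1 replicate 2 and ran from -1.24 to 0.29, while RFC3 (0.73) and UHRF1 (0.91) were -0.17 and -0.07 without NRP-1 replicate 3 and ran from -0.17 to 1.27 and from -0.07 to 1.48. PRIM1 was negative in each.

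For NRP-1 replicate 2, all calls numbered 4145, and 953 with DESeq2, 714 with the likelihood ratio test and 0 without the filter. The 25 lower genes of the list became 6, 0 and 0 in these, and the 1 higher gene 0 with the likelihood ratio test and 0 without the filter. For replicate 3, all calls numbered 5464, and 1779 with DESeq2, 1328 with the likelihood ratio test and 1630 without the filter, and the 39 higher genes became 0 with the likelihood ratio test. Between the NRP-1 libraries, all calls numbered 3144, and 621, 0 and 0 in the same order. The 40 higher genes and the 1 lower gene became 0 and 0 with the likelihood ratio test and without the filter. The dispersion of the likelihood ratio test contains the difference between the NRP-1 libraries by construction, and for the other settings the cause was not tested. Over the 43 genes and 3 comparisons, 645 values under alternatives had 421 on the same side of the threshold, 222 no longer past it, 2 newly past it and 0 with another sign. The genes above both controls in both NRP-1 libraries were 2, and 4 in CPM by library size and 4 in FPKM. With GC and length trends subtracted, the medians were 0.33, -0.49, 0.86 and 1.32. No paired analysis was possible because the 2 groups share only the replicate number 2. With 1 residual degree of freedom and 8243595 to 8448926 reads per library, the shallowest value of the 43 genes rests on 52 reads.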
